A study of Homo sapiens with 4 samples.

Results

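The 7 genes described here are tied to myeloma bone lesions and to homing of myeloma cells to the marrow, and were followed in 2 myeloma cell lines: the secreted factors CCL3, CCL4, DKK1, FRZB and HGF and the chemokine receptors CXCR4 and CCR1. They were picked by symbol, for their known roles, from the 22187 genes that the deposited tables hold once identifiers with the same symbol are summed. Of the 7 genes, 5 were listed in at least 1 library and 4 in all 4 libraries, while FRZB and HGF were listed in none. KMS18 and KMS28BM (K18 and K28BM in the sample labels) are human plasma cell lines from multiple myeloma that carry t(4;14), a translocation that joins the immunoglobulin heavy chain locus to the region of NSD2 and FGFR3. Each line gave 1 control library, labelled Luc, and 1 library from cells with stable knockdown of PKCα, the kinase encoded by PRKCA, so that the design asks what lower PKCα does in t(4;14) cells. All 4 libraries carry the translocation and a construct, each line and construct has 1 library, and the target sequence of the knockdown construct is not known here.

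Myeloma cells shift bone turnover by what they secrete. CCL3 and CCL4 (MIP-1α and MIP-1β) are chemokines that draw osteoclast precursors and promote their maturation, CCL3 in part through the receptor CCR1. DKK1 and FRZB are secreted antagonists of Wnt signalling, which osteoblasts need: DKK1 binds the co-receptors LRP5 and LRP6, and FRZB binds Wnt proteins themselves. HGF signals through the receptor MET and is held at the plasma cell surface by the proteoglycan SDC1. CXCR4, the receptor of the stromal chemokine CXCL12, retains plasma cells in the marrow.

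The libraries held 37940949 to 39507281 expected counts, and 11100 to 11591 genes reached 1 FPKM (fragments per kilobase of gene, scaled to library size). PRKCA was at 7.46 FPKM in the KMS18 control and 1.47 in its knockdown, and KMS28BM had 10.86 and 2.43 FPKM. Over both lines it fell by 2.34 in log2 units (SE 0.11, edgeR adjusted p = 0.00153, lower in 2 of 2 lines). Of 10 plasma cell marker symbols, 9 were listed, and all 9 reached 1 FPKM. None of the monocyte or macrophage markers did, and their summed level was 0.17 to 0.52 FPKM, with C1QA, C1QB, C1QC and FCN1 not listed. Stromal markers summed to 0.11 to 0.37 FPKM. The 8 markers of T and NK cells, which also make CCL3 and CCL4, summed to 9.26 FPKM in the KMS18 control and 23.43 in its knockdown, and to 1.48 and 3.7 FPKM for KMS28BM. Of these, 1, CD3E, reached 1 FPKM (7.32, 20.95, 1.0 and 3.27 FPKM, in that order), while CD3D was at 0.22, 0.06, 0 and 0 FPKM and CD8A at 0.03 FPKM or less.

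None of the 7 genes passed the test of knockdown against control over both lines, in which 8.82% of the 14870 genes tested passed. That test was edgeR's quasi-likelihood test on expected counts with cell line as a block, at an adjusted p of 0.05. Only CCL3, CXCR4, CCR1 and DKK1 had enough counts to enter it. At an unadjusted p under 0.05, 1 of these 4 passed (CCR1), against 26.4% of all genes tested. DESeq2 and limma also called 0 of the members they tested, and at an unadjusted p under 0.05 DESeq2 had 0 and limma 1. Over all genes DESeq2 called 1357 of 14870, but it gave no adjusted p for CCR1 and DKK1 and so could call neither. On log2(FPKM + 1), limma tested 3 members and called 117 of 12598 genes, so a call was unlikely for any gene. The median log2 difference of the 4 members that edgeR tested was 0.43, and that of all genes tested was 0.02. The lines are the only replication, so a p-value sets the mean change against the spread between these libraries, part of which is shared across genes. A pass therefore need not mean that both lines moved. In RNA from whole cultures, fewer cells that make a transcript and less of it per cell cannot be told apart.

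**Figure D1:**
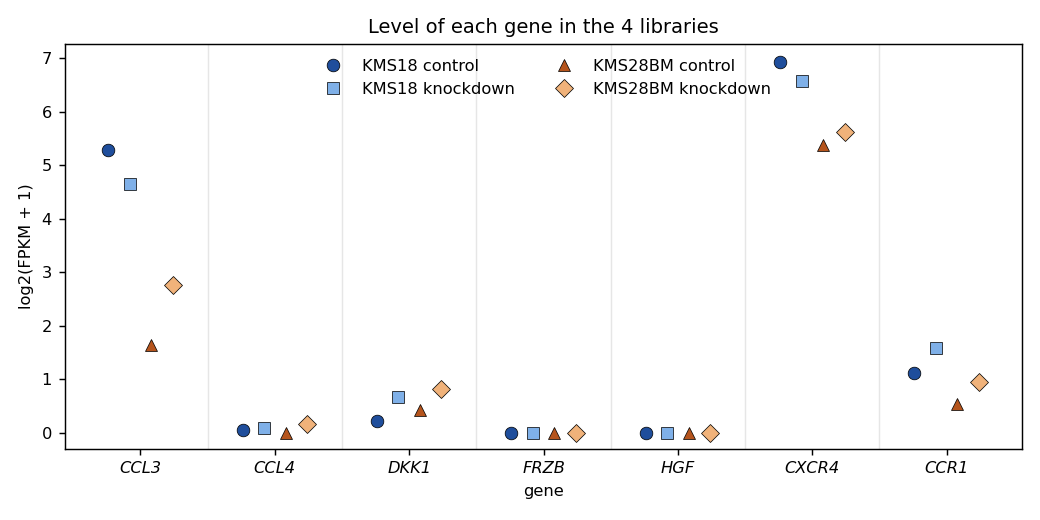
Level of each of the 7 genes in the 4 libraries, as log2(FPKM + 1), with 1 point per library and no error bars. CXCR4 and CCL3 are highest in the 2 KMS18 libraries, and FRZB and HGF lie at 0 in all 4.

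CCL3 was at 37.9 FPKM in the KMS18 control, 24.2 in the KMS18 knockdown, 2.1 in the KMS28BM control and 5.76 in the KMS28BM knockdown. Both KMS18 libraries were above both KMS28BM libraries, and the knockdown library was the lower of the pair in KMS18 and the higher in KMS28BM. The expected counts behind these levels were 1174.5, 760.99, 63.99 and 167.92. As a ratio of counts scaled by TMM (trimmed mean of M values), the KMS18 knockdown held 0.622 of its control (log2 ratio -0.68, 95% counting interval -0.82 to -0.55). The KMS28BM knockdown held 2.51 times its control (log2 ratio 1.33, interval 0.9 to 1.77). Neither interval holds 0, but each compares 1 library with 1 other and covers counting error only.

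Over both lines the opposite ratios of CCL3 gave a log2 difference of 0.09 with an SE of 0.40 (edgeR adjusted p = 0.926), higher in 1 of 2 lines. The difference between the 2 ratios was 2.01 on the log2 scale. It could not be tested, since a term for it leaves no residual degree of freedom. Of the 14870 genes tested, 30.6% had ratios of opposite sign in the 2 lines. In KMS28BM, CCL3 was the 1 member of the 2 at 1 FPKM or more to pass a size rule of 1 in the difference of log2(FPKM + 1), with a difference of 1.12, and 1.99% of 11455 genes passed that rule. In KMS18, 0 of 3 members passed it, against 1.46% of 11742 genes, and CCL3 differed by -0.63. The summed T and NK cell markers given above were higher in the knockdown library of both lines, mostly through CD3E. CD2 and GNLY, all below 1 FPKM, were higher in both as well. NKG7 was lower in both (0.97 and 0.88 FPKM for KMS18, 0.1 and 0 for KMS28BM). The remaining markers moved neither up in both lines nor down in both. The part of any of these in the CCL3 values was not tested.

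**Figure D2:**
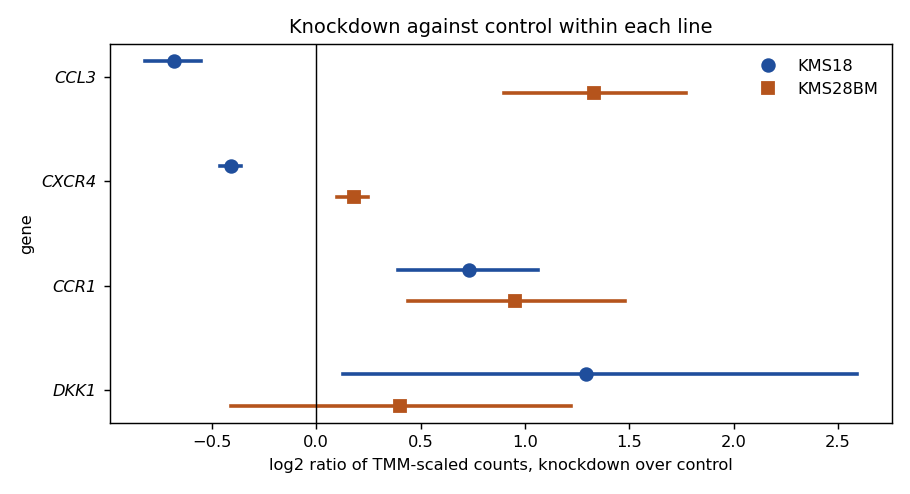
Log2 ratio of TMM-scaled expected counts, knockdown over control, in KMS18 (circles) and KMS28BM (squares), with exact 95% counting intervals as bars. CCL3 and CXCR4 lie on opposite sides of 0 in the 2 lines, CCR1 lies above 0 in both, and the KMS28BM interval of DKK1 spans 0.

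The human genome holds near-identical copies of CCL3 and CCL4, and the tables list CCL3 itself under 3 identifiers. One of them, ENSG00000277632, is on the primary assembly (chromosome 17, 36088256 to 36090169, minus strand, GRCh38), and the other two are not. In the KMS18 control the 3 held 1045.11, 126.21 and 3.18 counts, so that 89.0% lay in one of them. In the KMS18 knockdown they held 284.66, 284.66 and 191.67 counts, and the largest held 37.4%. In KMS28BM the counts were nearly equal over the 3 in both libraries. Only their sum is therefore read here. The symbol CCL3L3 also covers 3 identifiers, which together had 13.5, 9.18, 0 and 10.2 counts in the same library order. Of these, 1 is on the primary assembly, where RefSeq calls the copy CCL3L3 and GENCODE 29 calls it CCL3L1. It held 3.37 counts in the KMS18 control, 3.06 in the KMS18 knockdown and 3.4 in the KMS28BM knockdown. With the copies CCL3L1 and CCL3L3 added, the counts were 1188, 770.98, 63.99 and 180.76, and the log2 difference with knockdown was 0.13 with an SE of 0.42 (edgeR adjusted p = 0.886).

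**Figure D3:**
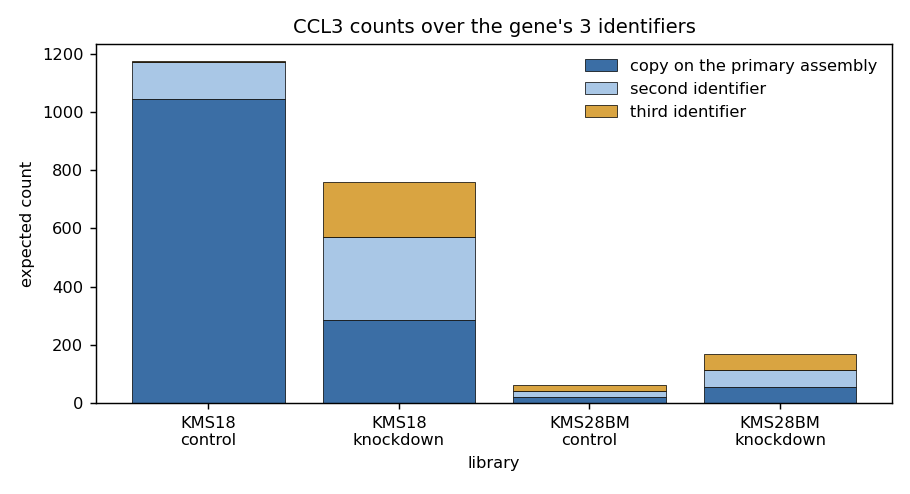
Expected counts of CCL3 in each library, stacked over the 3 identifiers that share the symbol, with the copy on the primary assembly at the bottom. The split between identifiers differs between the KMS18 control and the other 3 libraries, and the full height of a bar is the value used for CCL3.

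The stretch just before the transcription start of CCL3 and of its copy shows how alike they are, and the same stretch is given for the 3 other members that were tested. These are the 100 bases before the RefSeq start, read on the gene's own strand (GRCh38.p14), with each match to TATAAA, the TATA box that places the start of transcription, in capitals on either strand.
CCL3, chr17:36090144-36090243, minus strand: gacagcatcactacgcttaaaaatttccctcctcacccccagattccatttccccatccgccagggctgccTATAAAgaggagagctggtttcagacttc
CCL3L3, chr17:36196759-36196858, minus strand: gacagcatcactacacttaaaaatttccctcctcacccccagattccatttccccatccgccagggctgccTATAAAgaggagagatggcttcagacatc
CXCR4, chr2:136118150-136118249, minus strand: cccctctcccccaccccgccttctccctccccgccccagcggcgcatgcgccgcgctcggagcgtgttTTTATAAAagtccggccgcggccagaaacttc
CCR1, chr3:46208314-46208413, minus strand: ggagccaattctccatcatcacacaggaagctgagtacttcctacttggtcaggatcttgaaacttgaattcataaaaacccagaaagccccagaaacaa
DKK1, chr10:52314181-52314280, plus strand: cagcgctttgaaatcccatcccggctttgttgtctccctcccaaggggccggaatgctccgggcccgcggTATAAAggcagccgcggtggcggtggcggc

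CCL3 and CCL3L3 were identical at 96 of these 100 bases. TATAAA begins at -29 in CCL3, at -30 in DKK1 and at -30 in CXCR4, where the capitals also hold an overlapping match on the other strand. It does not occur in the 250 bases before the start of CCR1. Of 27305 promoters, 11.2% hold TATAAA in that window on either strand. TGANTCA, the AP-1 motif known for its response to PKC activation, was found in none of these 5 windows of 250 bases, and 6.57% of all promoters hold it.

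CCL4 was close to absent. It had 1 count in the KMS18 control, 2 in the KMS18 knockdown, 0 in the KMS28BM control and 3 in the KMS28BM knockdown (0.03, 0.06, 0 and 0.12 FPKM). With CCL4L2 added, the counts were 1, 4, 0 and 3.99. It did not enter the test, and at this depth no difference between libraries can be seen.

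DKK1 was at 0.16 FPKM in the KMS18 control and 0.59 in its knockdown, and KMS28BM had 0.35 FPKM in the control and 0.77 in the knockdown. Both knockdown libraries were above their control, and all 4 values were below 1 FPKM. Behind these levels were 9 and 23 counts for KMS18, and 24 and 33 for KMS28BM. The count ratio was 2.45 in KMS18 (log2 interval 0.13 to 2.59) and 1.32 in KMS28BM (log2 interval -0.41 to 1.22), so counting error alone spans no change in KMS28BM. Over both lines the log2 difference came to 0.78 with an SE of 0.51 (edgeR adjusted p = 0.384), higher in 2 of 2 lines. The FPKM ratios, 3.69 and 2.2, were larger than the count ratios. The length listed for DKK1, by which FPKM divides, differed between libraries: 1491.37 and 1070.31 bases for KMS18, and 1790 and 1141.1 bases for KMS28BM.

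DKK1 lies on chromosome 10, 52314296 to 52318042, plus strand (GRCh38). Its full-length transcript of 1790 bases holds AGTCTA once, in the 3′ UTR. These 6 bases are shared by CAGTCTA and AGTCTAA, sequences chosen with earlier results of these data known. Of 750 protein-coding genes that passed as lower with the knockdown, 53.3% hold CAGTCTA or AGTCTAA in a protein-coding transcript, against 16.0% of 505 that passed as higher and 23.1% of 12830 tested. These shares give no independent support, since the sequences were chosen with results of these data known. The shares are not adjusted for the number or length of transcripts per gene. The 6 bases are shown here in capitals with their flanks in DKK1, at chr10:52317209-52317238, plus strand. Their link to the level of DKK1 was not tested.
DKK1 site: atttaattctagAGTCTAgaacgcaaggat
The 2 longer forms do not occur in DKK1. AGTCTA also occurs in 2 of 11 protein-coding transcripts of HGF, both times as AGTCTAA, and in no protein-coding transcript of CCL3, CCL4, FRZB, CXCR4 or CCR1. Of 19669 protein-coding genes, 35.3% hold AGTCTA in at least 1 protein-coding transcript, and 20.2% hold a longer form. DKK1, the only member with the 6 bases that was listed, had more counts in the knockdown library in 2 of 2 lines and did not pass the test.

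FRZB and HGF were not listed in any library. The smallest level the tables list is 0.01 FPKM, which for the longest annotated FRZB transcript is 1.2 to 1.25 counts per library and for that of HGF is 2.27 to 2.37 counts. FRZB lies on chromosome 2 (182833275 to 182867162, minus strand) and HGF on chromosome 7 (81699008 to 81770438, minus strand, both GRCh38). Nothing can be said of a response of either gene to the knockdown.

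CXCR4 was the most abundant of the 7 genes per length in each library. CXCR4 (chromosome 2, 136114349 to 136118165, minus strand, GRCh38) was at 119.95 FPKM in the KMS18 control, 94.2 in the KMS18 knockdown, 40.8 in the KMS28BM control and 48.4 in the KMS28BM knockdown, and ranked between 644 and 2218 among 18346 to 18848 genes listed. The lines did not overlap, and the knockdown library was the lower of the pair in KMS18 and the higher in KMS28BM, as for CCL3. From 2683 to 7602 counts stood behind each value. The KMS18 knockdown held 0.751 of its control by scaled counts (log2 ratio -0.41, interval -0.46 to -0.36). The KMS28BM knockdown held 1.13 times its control (log2 ratio 0.18, interval 0.1 to 0.25). Over both lines the log2 difference came to -0.12 with an SE of 0.15 (edgeR adjusted p = 0.657), lower in 1 of 2 lines. In KMS28BM, 44.1% of 11455 genes differed by at least as much as CXCR4 on log2(FPKM + 1), and in KMS18 28.1% of 11742 genes did.

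CCR1, through which CCL3 acts on osteoclast precursors, was at 1.16 FPKM in the KMS18 control and 2.01 in its knockdown, and KMS28BM had 0.45 FPKM in the control and 0.92 in the knockdown. Its level was higher in the knockdown library of both lines, and the lines did not overlap. Behind these levels were 119 and 205 counts for KMS18, and 48 and 97 for KMS28BM. The knockdown held 1.65 times the control in KMS18 (log2 ratio 0.73, interval 0.39 to 1.06) and 1.93 times in KMS28BM (log2 ratio 0.95, interval 0.44 to 1.48). Over both lines the log2 difference came to 0.83 with an SE of 0.29 (edgeR unadjusted p = 0.0246, adjusted p = 0.126), higher in 2 of 2 lines, and it did not pass the test. Over the alternatives that gave one, the adjusted p ranged from 0.0989 to 1. CCR1 (chromosome 3, 46201709 to 46208396, minus strand, GRCh38) has a listed length of 2731 bases in every library.

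Between the lines, 3 of the 4 genes tested passed: CCL3, CXCR4 and CCR1 were all lower in KMS28BM than in KMS18. The background of that comparison is high, since 62.9% of all genes tested passed it (66.7% at an unadjusted p under 0.05) and 32.3% were lower in KMS28BM. The 2 libraries of a line carry different constructs and are not separate cultures of 1 condition. CCL3 was 9.37-fold lower in KMS28BM over both constructs (log2 -3.23, SE 0.42, edgeR adjusted p = 0.000572). The gap was 20.1-fold between the control libraries and 4.98-fold between the knockdown libraries. CXCR4 was 2.53-fold lower in KMS28BM (log2 -1.34, SE 0.15, edgeR adjusted p = 0.000267), 3.1-fold between the controls and 2.06-fold between the knockdowns.

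CCR1 was 2.5-fold lower in KMS28BM (log2 -1.32, SE 0.29, edgeR adjusted p = 0.00639). This call was lost when construct was left out of the model (adjusted p = 0.0709). DKK1 went the other way, with a log2 difference of 0.77 and an SE of 0.51 (edgeR adjusted p = 0.22), and did not pass. In scaled counts the order of the libraries was the same for CCL3 and CXCR4: the KMS18 control was highest, then the KMS18 knockdown, the KMS28BM knockdown and the KMS28BM control, with no counting intervals of neighbours overlapping. For CCR1 the KMS18 knockdown came first at 5.45 CPM (counts scaled to a common library size), and the next libraries in the order, the KMS18 control (3.29 CPM, interval 2.73 to 3.94) and the KMS28BM knockdown (2.35 CPM, interval 1.9 to 2.86), overlapped. For DKK1 and CCL4 every pair of neighbours overlapped.

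The genes whose profile over the 4 libraries was most like that of CXCR4 were WSCD1 and HS6ST1, each at a distance of 0.08 in log2(FPKM + 1) centred on the gene's mean, among 9483 genes at 5 FPKM or more in at least 1 library. The third had an identifier but no symbol and lay at 0.13. HS6ST1 was at 21.7 FPKM in the KMS18 control and 16.5 in its knockdown, against 7.06 and 7.79 FPKM for KMS28BM. The genes most like CCL3 were BMI1 and PVRIG2P, both at 0.47, and TMCC3 at 0.65. BMI1 was at 63.5 FPKM in the KMS18 control and 48.0 in its knockdown, against 6.6 and 10.1 FPKM for KMS28BM. With 4 points per gene, these distances are descriptions only.

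The partners of these factors were uneven. CXCL12, the ligand of CXCR4, was not listed in any library, nor was TNFSF11 (RANKL), the main osteoclast differentiation factor. ACKR3, the decoy receptor that also binds CXCL12, had 0.12 and 0.68 FPKM for KMS18 (control, then knockdown) against 7.31 and 7.66 for KMS28BM. It was higher in the line with less CXCR4 (log2 4.30, SE 0.38, edgeR adjusted p = 9.07e-05). MIF, another ligand of CXCR4, had 385 and 320.5 FPKM for KMS18 against 285 and 316 for KMS28BM, and passed neither test (edgeR adjusted p = 0.582 for the knockdown). CD74, its receptor partner, had 7267 and 8842 FPKM for KMS18 but 5.63 and 51.8 for KMS28BM (log2 -8.86 between lines, SE 0.78, edgeR adjusted p = 9.34e-05). Its knockdown difference did not pass (adjusted p = 0.168). CCL5, another ligand of CCR1 that was named after its values were seen, was at 56.4 to 69 FPKM in all 4 libraries (log2 0.00 with knockdown, SE 0.10, edgeR adjusted p = 0.999).

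**Figure D4:**
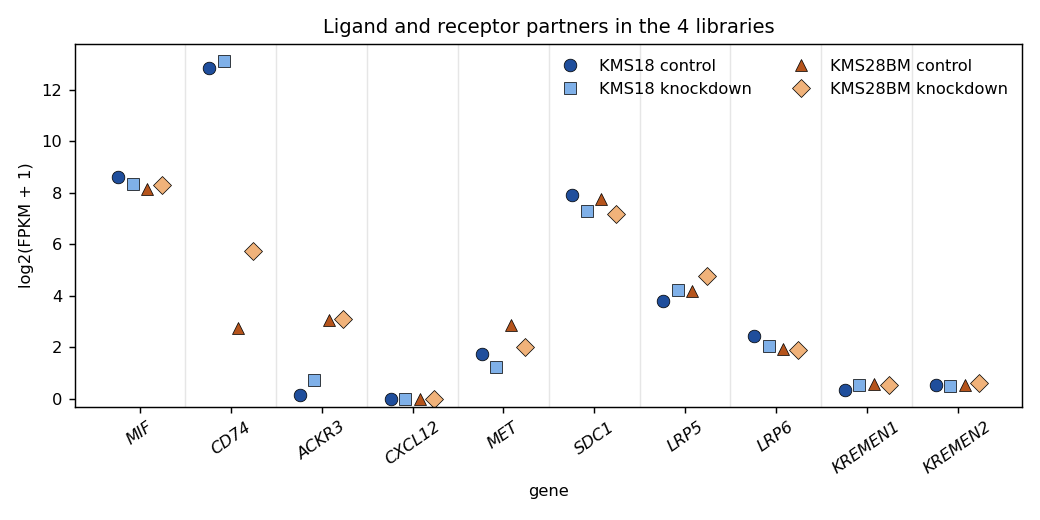
Levels of ligand and receptor partners of the 7 genes as log2(FPKM + 1), with 1 point per library. CD74 and ACKR3 separate the 2 lines, CXCL12 lies at 0, and MET and SDC1 are lower in the knockdown library of each line.

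On the HGF side, the receptor MET and the surface carrier SDC1 fell with the knockdown, while HGF itself was not listed. MET went from 2.31 to 1.38 FPKM with the KMS18 knockdown and from 6.23 to 3.04 with that of KMS28BM, and fell by 0.93 in log2 units (SE 0.17, edgeR adjusted p = 0.0216, lower in 2 of 2 lines). SDC1 went from 239 to 156 FPKM with the KMS18 knockdown and from 217 to 143 with that of KMS28BM, and fell by 0.65 (SE 0.10, edgeR adjusted p = 0.0132, lower in 2 of 2 lines). SDC1 is also a plasma cell marker, and 7 of the 9 plasma cell markers listed were lower in the knockdown library of both lines. CD38 was higher in both and passed as higher (log2 0.59, edgeR adjusted p = 0.0193). By that test 7 of the 9 passed in either direction, against 8.82% of all genes tested. The 9 summed to 7689.6 FPKM in the KMS18 control and 6599.14 in its knockdown, and to 8661.34 and 7932.72 for KMS28BM. Most of each sum was JCHAIN, at 5700.97 and 5375.59 FPKM for KMS18 and 6689.47 and 6759.75 for KMS28BM. Among the 9, XBP1, the transcription factor of secretory cells, was at 359.95 and 196.15 FPKM for KMS18 and 472.19 and 265.05 for KMS28BM. The part of these markers in the SDC1 result was not tested. GAB1 and CBL, an adaptor and a ubiquitin ligase that act on activated MET, fell as well (edgeR adjusted p = 0.0153 and 0.0201). Both hold CAGTCTA and AGTCTAA in a protein-coding transcript, and MET and SDC1 hold neither. In all, 4 of 11 genes of HGF activation and reception that were tested fell and 0 rose, with 5.25% of all genes tested lower. The list's median log2 difference was -0.10 against 0.02 over all genes tested.

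On the Wnt side, LRP5, a co-receptor bound by DKK1, went from 12.8 to 17.6 FPKM with the KMS18 knockdown and from 17.1 to 26.2 with that of KMS28BM. It rose by 0.56 in log2 units (SE 0.11, edgeR adjusted p = 0.0273). LRP6 did not pass (edgeR adjusted p = 0.435). Neither did KREMEN1 and KREMEN2, which help DKK1 clear the co-receptors and were at 0.26 to 0.53 FPKM. LRP5 was the 1 call among 27 Wnt antagonists, receptors and ligands tested. Of 18 transducers and target genes, BCL9 and BCL9L, co-activators of beta-catenin, rose (log2 differences 0.79 and 0.96, edgeR adjusted p = 0.0105 and 0.0101) and 0 fell. Higher calls made up 3.57% of all genes tested.

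Among other chemokine genes, 0 of 4 ligands and 0 of 11 receptors tested passed with the knockdown by edgeR. DESeq2 and limma also called 0, which adds little. On log2(FPKM + 1), limma tested only 7 of the receptors and called 117 of 12598 genes. DESeq2 gave no adjusted p for CCR1, at 48 to 205 counts, and several of the receptors had fewer counts than that. At an unadjusted p under 0.05, 0 ligands passed by any of the 3 tools, and 3 receptors passed by edgeR (CD74, CXCR2 and CXCR3), 2 by limma and 0 by DESeq2. The edgeR share over all genes at that p was 26.4%, close to that of the receptors. Of 26 genes that carry or end the signal of chemokine receptors, 3 rose and 2 fell, where 3.57% of all genes tested rose and 5.25% fell. GNAI2, a G protein subunit coupled to CXCR4, rose by 0.57 in log2 units (SE 0.09, adjusted p = 0.017), and GRK2, a kinase that shuts off activated receptors, rose by 0.71 (SE 0.12, adjusted p = 0.0176), both by the edgeR test. JAK3 passed as higher through KMS18 alone, with 13.5 FPKM in the control and 23.4 in the knockdown, since both KMS28BM libraries were at 0.03 FPKM. ELMO1, a partner of DOCK2 in cell migration, fell by 0.74 (SE 0.09, edgeR adjusted p = 0.00926), as did ARRB2, an arrestin that was picked out from its value, with a fall of 0.52 (SE 0.11, edgeR adjusted p = 0.0407). Without a filter on low counts the calls of MET, GAB1, CBL, LRP5, GNAI2, GRK2, JAK3 and ARRB2 were lost, and with limma on log2(FPKM + 1) those of SDC1, BCL9, BCL9L and ELMO1 were lost too.

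**Figure D5:**
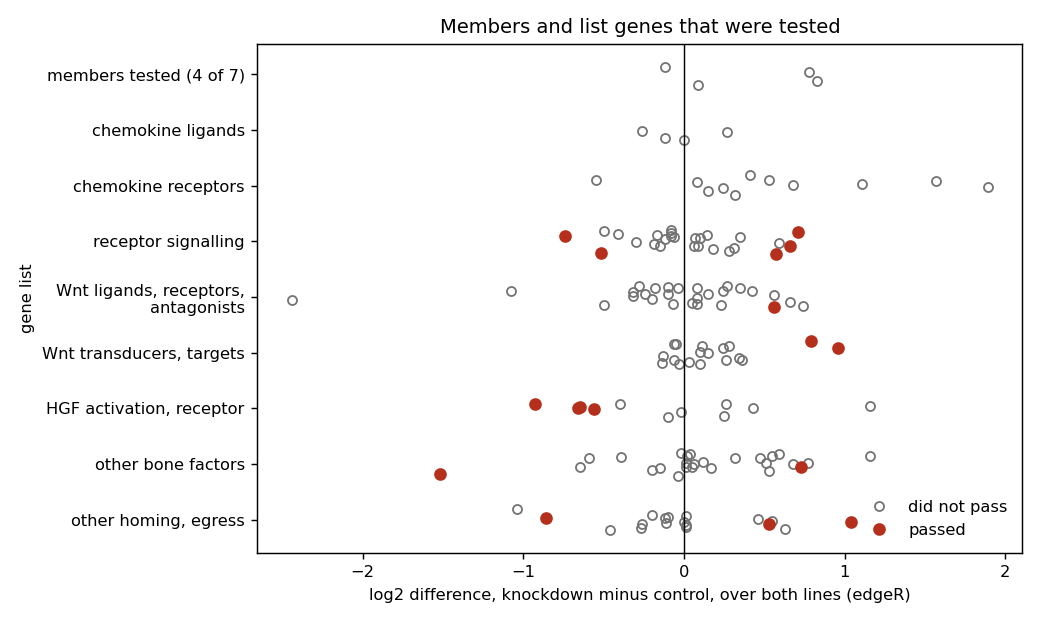
Log2 difference of knockdown minus control over both lines from edgeR for the 4 members and the list genes that were tested, with 1 point per gene. Filled points passed at an adjusted p of 0.05 and open points did not, and none of the 4 points in the top row is filled.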

How the data were processed

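RNA from 4 cultures was sequenced from TruSeq RNA version 2 libraries, per the labels' protocols, a kit that keeps no strand. The authors deposited 1 table per library, which holds for each gene identifier an expected count of reads, an FPKM value scaled to gene length and library size, and a length, per the file headers. STAR, Bowtie2, HISAT, GRCh37 and hg19 are named in the submitters' processing notes. The step each served and the counting program are not given in the sources used here. Coordinates come from GENCODE 29 (GRCh38), matched by identifier or symbol, and promoters from RefSeq (GRCh38.p14), which held 6 of the 7 members.

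Expected counts and FPKM were summed by symbol. Counts were rounded and tested with edgeR 4.0.16 (R 4.3.3): TMM, default filter (minimum count 10), cell line and construct as terms, 1 residual degree of freedom, and Benjamini-Hochberg adjustment over 14870 genes. Nothing says that the cultures were replicated, so p-values rest only on the spread between these libraries. That spread is partly shared across genes (median prior degrees of freedom 5.85). Intervals are exact 95% (Poisson, or Clopper-Pearson for a ratio) and cover counting error only. Within a line, the size rule compares log2(FPKM + 1), which shrinks changes of low genes. Alternatives used DESeq2 1.42.0 and limma 3.58.1. The libraries of a line are paired because they come from the same cell line. The genes named are the members, their partners, and up to 4 genes per list past a test, and the members and lists were chosen with earlier results of these data known.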

Additional observations from a re-analysis of the deposited data

Results flagged for a closer look

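CCL3 stood out because its knockdown and control libraries differed in opposite directions in the 2 lines: the log2 ratio of scaled counts was -0.68 in KMS18 and 1.33 in KMS28BM, a difference of 2.01 that was not tested. CXCR4 did the same on a smaller scale, with -0.41 in KMS18 and 0.18 in KMS28BM, a difference of 0.59 that was not tested either. Opposite signs in the 2 lines were found for 30.6% of all genes tested.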

How the results depend on the processing

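No alternative called any of the 7 genes with the knockdown, and CCL3 and CXCR4 were called lower in KMS28BM under every alternative run. CCR1 lost its call between lines with construct left out, and had too few counts for the filter of 5 CPM in at least 2 libraries. DKK1 was left out by that filter and by limma, and DESeq2 gave no adjusted p for CCR1 and DKK1 with the knockdown. Without the cell line as a block, CCL3 had a knockdown log2 difference of -0.49 in place of 0.09. Leaving out a line, which leaves values with no test, gave -0.68 to 1.33 for CCL3, -0.41 to 0.18 for CXCR4, 0.73 to 0.95 for CCR1 and 0.4 to 1.29 for DKK1. Over all genes, the knockdown calls were 1312, but 367 with no filter on low counts, 117 with limma on log2(FPKM + 1), 0 with limma on log2(FPKM + 0.1) and 0 without the cell line block. PRKCA itself was not called under the last 2. Of the 17 list genes called, all kept their direction under each alternative. The number still called was 17 with median of ratios scaling, 15 with DESeq2, 6 without a filter, 1 with limma on log2(FPKM + 1), and 0 with limma on log2(FPKM + 0.1) or without the block. The cause of these losses was not tested. At this depth CCL4 had 0 to 3 counts per library, DKK1 9 to 33, and FRZB and HGF were not listed.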

Other observations

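Of 26 further osteoclast and osteoblast factors tested, 1 fell and 1 rose with the knockdown, a share near the 8.82% of all genes tested that passed. ANXA2, a surface protein used in marrow adhesion, fell by 1.52 in log2 units (SE 0.14, edgeR adjusted p = 0.00459), and BMP6, a bone morphogenetic protein, rose by 0.73 (SE 0.14, edgeR adjusted p = 0.0289). BMP6 had 21.6 and 30.8 FPKM for KMS18 (control, then knockdown) against 16.9 and 35.9 for KMS28BM, above CCL3 in every library but the KMS18 control. Among 18 other homing and egress genes, not all of them receptors, PTGER4, a prostaglandin receptor, rose by 1.04 (SE 0.20, edgeR adjusted p = 0.0257). HMMR, a hyaluronan receptor that also acts in mitosis, fell by 0.86 (SE 0.10, edgeR adjusted p = 0.00842). Without a filter on low counts BMP6 and PTGER4 lost their calls, and with limma on log2(FPKM + 1) HMMR did too.

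The lines themselves differed widely in these lists. Of the 26 osteoclast and osteoblast factors, 11 were higher and 7 lower in KMS28BM. Of the 18 homing and egress genes 7 were higher and 10 lower, where 62.9% of all genes tested passed. The genes named here all passed that edgeR test between lines. LTA, a lymphotoxin, had 22.2 and 13.6 FPKM for KMS18 against 0.54 and 0.79 for KMS28BM. CSF1, a growth factor of osteoclast precursors, had 1.09 and 1.43 FPKM for KMS18 against 0.02 and 0.06 for KMS28BM. JAG1, a Notch ligand, went the other way, with 0.33 and 0.47 FPKM for KMS18 against 5.48 and 7.68 for KMS28BM. SPINT2, an inhibitor of the proteases that activate HGF, had 87.1 and 61.9 FPKM for KMS18 against 0.08 and 0.12 for KMS28BM. ST14, one of those proteases, had 41.9 and 35.9 FPKM for KMS18 against 0.91 and 0.79 for KMS28BM (edgeR adjusted p = 7.17e-07). NKD2, a Wnt inhibitor, was not listed in the KMS18 libraries and had 13 and 16.9 FPKM for KMS28BM.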
